A study of Mus musculus with 9 samples.

Results

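A set of 10 genes that mark or equip duct epithelium was followed through mouse sublingual glands without irradiation and 7 or 14 days after it. They are the simple-epithelium keratins Krt7, Krt8, Krt18 and Krt19, the growth factor Egf, the receptor Kit, the sodium channel subunits Scnn1a and Scnn1b, the chloride channel Cftr and the bicarbonate cotransporter Slc4a4. They were taken by name, with earlier results of these data known, as were the gene lists below. Shares called beside those of all genes are therefore a description and not a test of a list. All 10, of 54532 genes in the count tables, were among the 15348 genes with enough reads to test. RNA-seq libraries came from sublingual glands of wild-type mice, in 3 groups of 3: no radiation, day 7 after 10 Gy, and day 14 after 10 Gy. The sublingual gland is a mostly mucous salivary gland under the tongue. RNA was taken from tissue sections and treated with DNase, so every cell type of the gland contributed. The labels used here give no strain, sex or age, and they do not say that the replicates came from separate animals. The p-values therefore reflect how much these libraries varied, and that variation may be technical.

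Salivary ducts carry the fluid made by acini to the mouth and modify it on the way. Their cells take up sodium through the epithelial sodium channel, whose subunits are encoded by Scnn1a, Scnn1b and Scnn1g, and take up chloride through Cftr, while bicarbonate is moved by cotransporters and exchangers. Krt7 and Krt19 are used as duct markers, whereas Krt8 and Krt18 form the filaments of simple epithelium and are also made by acini. Kit marks intercalated duct cells and is also made by mast cells and melanocytes, and Egf is best known from the granular ducts of the mouse submandibular gland.

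Sequences upstream of the start site were read for the 8 of the 10 genes that have an entry in the RefSeq promoter table (GRCm38.p6). The 150 bases before the start were searched on both strands for the promoter motif TATAAA, the letters CCAAT of the box of that name, the GC box with the letters GGGCGG, the AP-1 site with TGANTCA, the grainyhead site with AACCNGTT, and the core of many ETS sites, AGGAAG. No matches overlap each other in the windows shown. Scnn1b and Cftr are shown because their levels varied together across the libraries, and Egf as a member that was called higher at day 7. All are written 5′ to 3′ on the gene's own strand, with the matches in capitals. The Scnn1b window is chr7:121864888-121865037 (plus strand), the Cftr window chr6:18170537-18170686 (plus strand) and the Egf window, the first of 2 entries for that gene, chr3:129755323-129755472 (minus strand).
Scnn1b: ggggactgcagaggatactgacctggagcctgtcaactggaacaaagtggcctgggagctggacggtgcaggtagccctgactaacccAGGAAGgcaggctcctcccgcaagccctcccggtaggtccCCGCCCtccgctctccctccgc
Cftr: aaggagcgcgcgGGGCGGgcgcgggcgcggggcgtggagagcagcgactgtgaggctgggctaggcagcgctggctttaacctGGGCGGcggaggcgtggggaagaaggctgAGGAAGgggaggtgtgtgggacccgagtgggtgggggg
Egf: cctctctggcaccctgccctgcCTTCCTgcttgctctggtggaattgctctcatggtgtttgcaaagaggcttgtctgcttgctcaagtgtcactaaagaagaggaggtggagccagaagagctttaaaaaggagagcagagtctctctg
The Scnn1b and Cftr windows hold GGGCGG, or its reverse complement CCGCCC, together with AGGAAG, as does the window of Krt7. The Egf window holds the ETS core as its reverse complement CTTCCT and no GC box, and the window of the second Egf entry (chr3:129725087-129725236) holds none of the motifs. Over all 32851 promoters of the table, 28.6% hold a GC box in a window of this length, 19.7% hold the ETS core and 4.54% hold both. TATAAA is in 7.57% of them, CCAAT in 24.5%, the AP-1 letters in 4.24% and the grainyhead letters in 1.05%, and none of these is in the 3 windows shown.

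The 9 libraries held 15962399 to 19441239 counts, and levels below are CPM after TMM scaling, in which each library's counts are set to a common effective total. The members' counts ran from 54 to 127 for Krt19 and from 98 to 177 for Cftr, the lowest of the 10, up to 12001 to 14462 for Krt18. A count of 3 in a library corresponds to 0.154 to 0.188 CPM, so all members lay well above the limit of detection. Each change is given as a log2 fold change with its standard error (SE) from edgeR's quasi-likelihood test, and p-values were adjusted by Benjamini-Hochberg over the 15348 genes, with 0.05 as the threshold.

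Per kilobase of exon, the members spanned a wide range of levels. In controls Krt18 was highest at 580.8 ± 46.7 CPM per kilobase (mean ± SD, n = 3), followed by Krt8 at 212.0 ± 13.0 and Krt7 at 24.4 ± 2.43. Egf at 16.1 ± 1.24 and Scnn1a at 15.6 ± 0.971 overlapped in their libraries. Scnn1b followed at 6.90 ± 0.604, then Krt19 at 4.01 ± 0.346 and Kit at 3.44 ± 0.246. Cftr at 1.29 ± 0.247 and Slc4a4 at 0.880 ± 0.0974 were the lowest, and Slc4a4 moved above Cftr in the group means at day 7 (1.19 ± 0.200 against 0.978 ± 0.172) and day 14 (1.10 ± 0.356 against 0.956 ± 0.251), with overlapping libraries at both times. The order of Krt7 and Egf depends on the gene model: with the longest transcript as the length, Egf at 49.8 ± 2.83 lay above Krt7 at 38.3 ± 4.401 at day 7, and Kit lay above Krt19 in all groups.

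At day 7 against control, Egf, Kit and Scnn1a passed the test as higher and Krt8 and Krt18 as lower, so 5 of the 10 genes changed. Over all tested genes 30.6% were called, 15.8% as higher and 14.8% as lower. The libraries of both groups did not overlap for 6 of the 10 members, against 43.9% of all genes. The median change of the members was -0.20 on the log2 scale, beside 0.02 over all tested genes. At day 14 against control none of the 10 was called (1.76% of all genes were, 1.13% as higher and 0.632% as lower), and at day 14 against day 7 Scnn1a alone was called, as lower (6.59% of all genes were called, 3.72% as higher and 2.87% as lower). After correction for gene length and GC content, given below, Scnn1a alone kept its day 7 call, Krt18 changed sign and Cftr was called lower. Both irradiated groups were compared with the same 3 control libraries. The count over all genes at day 7 was 4692, and 3106 without day 7 library 1. With 1 library left out, 1 to 3 members were called higher and 1 to 2 lower at day 7, as named gene by gene below.

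**Figure D1:**
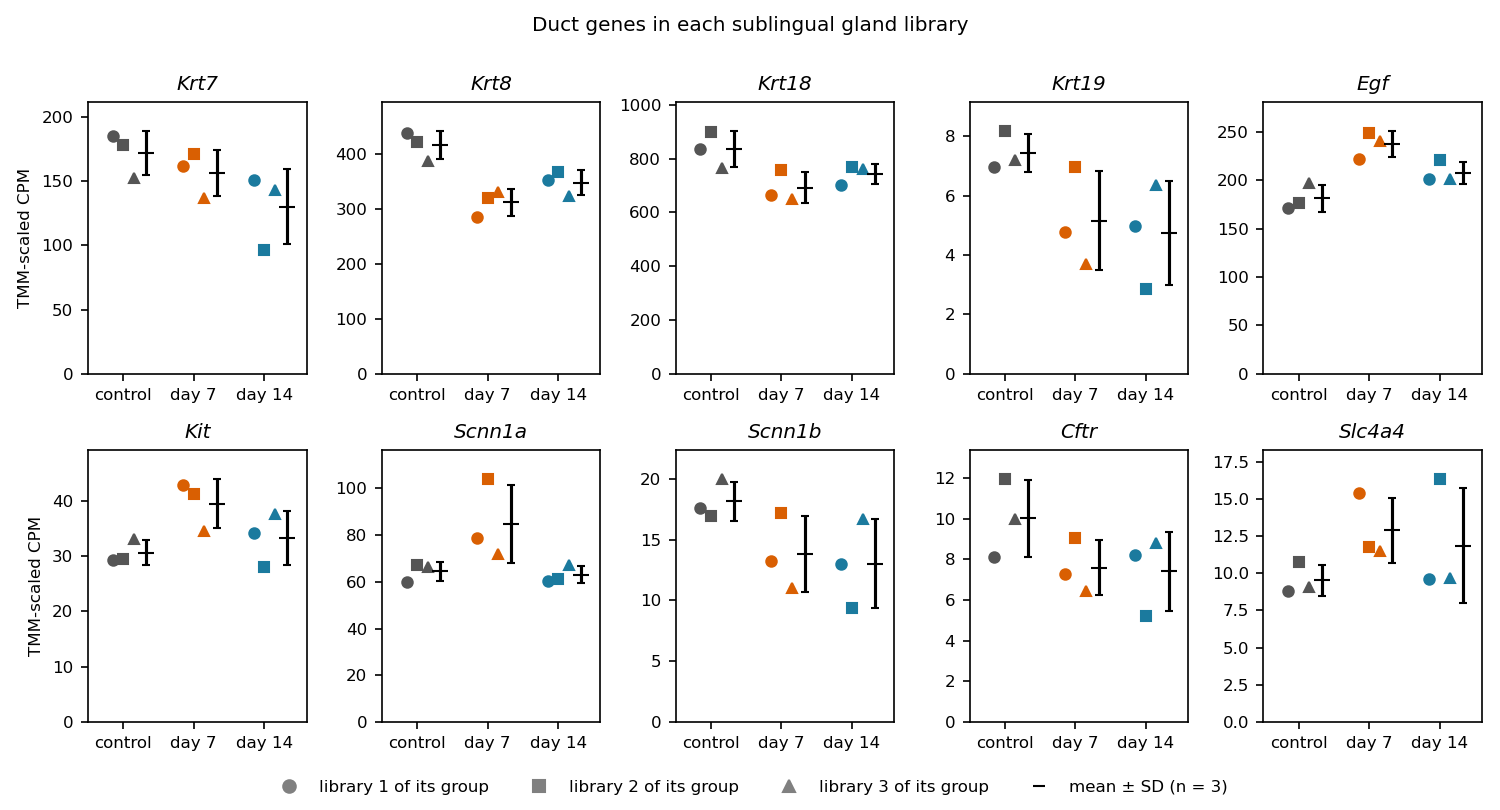
Level of each duct gene (TMM-scaled CPM, linear axes from 0) in the 9 libraries, with the library's number in its group as the symbol and the mean ± SD of 3 libraries as the bar. Krt8 and Krt18 sit lower and Egf, Kit and Scnn1a higher at day 7 than in all 3 controls, and day 14 library 2 is the lowest point for Krt7, Krt19, Scnn1b and Cftr.

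Among the keratins, Krt8 and Krt18 are the partner proteins of simple-epithelium filaments. Krt8 (ENSMUSG00000049382, chr15:101996698-102004482, minus strand, GRCm38) was at 437, 421 and 387 CPM in the controls, at 284, 319 and 330 at day 7 and at 352, 366 and 322 at day 14. All irradiated libraries lay below all controls, and day 7 and day 14 overlapped. Krt8 fell at day 7 by 0.42 (SE 0.0913, adjusted p = 0.00221). At day 14 its difference from control was -0.26 (SE 0.0912, adjusted p = 0.113). The day 7 call held with each of the 9 libraries left out in turn. At day 14 Krt8 passed without control library 3 (-0.34, adjusted p = 0.0217), in DESeq2 (-0.28, adjusted p = 0.040) and in limma-voom (-0.28, adjusted p = 0.0225).

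Krt18 (ENSMUSG00000023043, chr15:102028180-102032027, plus strand) had 837, 900 and 766 CPM in the controls, 665, 759 and 652 at day 7 and 701, 768 and 760 at day 14. Its day 7 libraries lay below the controls with a narrow gap between 759 and 766, and the day 14 libraries overlapped both groups. Krt18 fell at day 7 by 0.27 (SE 0.0931, adjusted p = 0.0337). That call was lost without control library 1 (-0.27, adjusted p = 0.075), control library 2 (-0.23, 0.146), day 7 library 1 (-0.24, 0.119) or day 7 library 3 (-0.23, 0.132). At day 14 the difference was -0.17 (SE 0.0930, adjusted p = 0.312).

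Because Krt8 and Krt18 pair in the filament, their ratio per kilobase of exon was also followed. It was 0.383, 0.343 and 0.371 in the controls, 0.314, 0.308 and 0.372 at day 7 and 0.369, 0.350 and 0.311 at day 14. The groups overlapped, with two-sided exact permutation p-values of 0.3 for day 7 and 0.4 for day 14 against control, where 0.1 is the smallest that 3 libraries against 3 can give.

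Krt7, a keratin of glandular ducts (ENSMUSG00000023039, chr15:101411043-101430313, plus strand), was at 185, 178 and 152 CPM in the controls, at 162, 172 and 137 at day 7 and at 151, 96.6 and 144 at day 14. Day 7 overlapped the controls, and all day 14 libraries lay below them, library 2 by the most. The difference from control was -0.13 at day 7 (SE 0.145, adjusted p = 0.529) and -0.40 at day 14 (SE 0.146, 95% interval -0.71 to -0.086, adjusted p = 0.138). Without day 14 library 2 the day 14 difference was -0.25. DESeq2 called Krt7 lower at day 14 (-0.42, adjusted p = 0.0469), as did edgeR without a filter on low counts (-0.40, adjusted p = 0.00549).

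Krt19, the smallest of the acidic keratins (ENSMUSG00000020911, chr11:100140810-100148665, minus strand), was at 6.95, 8.16 and 7.18 CPM in the controls, 4.78, 6.98 and 3.71 at day 7 and 4.97, 2.87 and 6.34 at day 14. One day 7 library reached the controls, and the day 14 libraries were all below them. The difference was -0.53 at day 7 (SE 0.277, adjusted p = 0.16) and -0.65 at day 14 (SE 0.279, adjusted p = 0.185), and neither passed. Without day 14 library 2 the day 14 value was -0.42. Of 12 other keratins, 7 were tested, and Krt23 (-0.60) and Krt80 (-0.64), both keratins of differentiated epithelium, fell at day 7 (adjusted p = 0.000434 and 0.000602). Krt80 was also lower at day 14 (-0.50, adjusted p = 0.0381), a call lost in 9 of 19 alternatives, among them the replicate block and leaving out control library 1 or 2, day 7 library 2 or any day 14 library (values from -0.55 to -0.48 with a library left out). The basal keratins Krt5 and Krt14 had differences of -0.17 and -0.07 at day 7 and were not called. Both changed sign after the length and GC correction. Krt14 was then called higher (0.30, adjusted p = 0.0491), and Krt5 was not called (0.16, 0.319). The median over the 7 was -0.17 at day 7, and 28.6% of them were called, beside 30.6% of all tested genes.

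Egf, the ligand of the EGF receptor (ENSMUSG00000028017, chr3:129677565-129755316, minus strand), was at 171, 176 and 197 CPM in the controls, at 222, 248.8 and 240 at day 7 and at 201, 221 and 201 at day 14. All day 7 libraries lay above all others, with day 14 library 2 close under the lowest of them, and all day 14 libraries lay above the controls. Egf rose at day 7 by 0.39 (SE 0.0894, adjusted p = 0.00321) and kept its call with each library left out in turn. At day 14 it differed by 0.19 from control (SE 0.0894, adjusted p = 0.216) and by -0.19 from day 7 (SE 0.0892, adjusted p = 0.206). Reads of Egf cannot be told apart from those of the opposite-strand genes 6330410L21Rik and Gm42697, which overlap its exons, if reads were counted without strand. The same applies to Krt7 with Gm671, Krt8 with Gm36026 and Cftr with Gm15592.

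A list of granular duct genes of the submandibular gland, which lies against the sublingual gland, was followed beside Egf. The 14 genes of that list, chiefly Klk1b kallikreins whose near-identical copies can share reads, summed to 96.2, 112 and 498 CPM in the controls. The sums were 81.8, 78.6 and 65.4 CPM at day 7 and 83.5, 161 and 80.7 CPM at day 14. Control library 3 stood apart in this list and also had the highest control level of Egf, and without it Egf rose at day 7 by 0.43. At day 7, 3 of the 13 tested were lower (Klk1b8 by -1.48, Klk1b9 by -1.08 and Klk1b24 by -0.90) and none higher. That is 23.1% called, beside 30.6% of all tested genes (14.8% as lower). Only 1 was lower without day 7 library 1, 2 or 3. After correction for gene length and GC content none of the 3 was called, and neither was Egf.

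The EGF receptor Egfr was at 16.7, 17.1 and 18.0 CPM in the controls and 23.0, 18.1 and 19.8 at day 7, a difference of 0.23 that was not called (adjusted p = 0.209). Of 17 tested genes among the EGF receptors, ligands and their regulators, 35.3% were called at day 7, beside 30.6% of all tested genes. The calls were 5 higher and 1 lower, and the median of the list was 0.22. They include Nrg1, a ligand of ErbB receptors (1.03, adjusted p = 0.00621), Adam10, a protease that sheds ligands (0.70, 0.00589), Lrig1, an inhibitor of the receptors (0.62, 0.000129), and the receptor Erbb3 (0.53, 0.000954). The remaining calls, looked up after the count was known, were Lrig3 (0.45, adjusted p = 0.0468) as higher, which held in 0 of the 9 fits with a library left out, and the membrane protease Rhbdl2 (-0.68, 0.0114) as lower. Nrg1 was low, at 2.13, 2.90 and 3.17 CPM in the controls and 6.57, 4.61 and 5.53 at day 7. The 1 lower call was lost without day 7 library 1. At day 14 edgeR called none of the 17, with 4 at an unadjusted p under 0.05, a share not counted over all genes. DESeq2 and limma-voom called 2 each, beside 6.79% and 10.9% of all genes.

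Kit, a receptor tyrosine kinase (ENSMUSG00000005672, chr5:75574916-75656722, plus strand), was at 29.3, 29.5 and 33.2 CPM in the controls, 42.8, 41.2 and 34.6 at day 7 and 34.2, 28.0 and 37.7 at day 14. The day 7 libraries lay above the controls, library 3 by a little, and day 14 spanned both. Kit rose at day 7 by 0.37 (SE 0.126, adjusted p = 0.034). The call was lost without control library 1 (0.33, adjusted p = 0.1), control library 2 (0.33, 0.117), day 7 library 1 (0.30, 0.141) or day 7 library 2 (0.34, 0.109). At day 14 the difference from control was 0.12 (SE 0.127, adjusted p = 0.632).

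Among markers of the other cells that make Kit, those of mast cells were scarce. The 9 mast cell genes summed to between 0.467 and 1.77 CPM in every library, none was abundant enough to test, and Fcer1a, Ms4a2 and Mrgprb2 were at 0 in all 9. The sum in the controls was 0.809 to 1.77 CPM and at day 7 it was 0.869 to 1.07. Of 6 melanocyte genes, Tyr and Tyrp1 were at 0 throughout, and the sum was 20.4 to 24.1 CPM in controls, 23.1 to 31.6 at day 7 and 23.1 to 25.6 at day 14, near the level of Kit itself. Mitf, which other cells also make, held 11.9 to 16.4 CPM of it and Pmel 5.81 to 8.06. Dct was at 11.1 CPM in day 7 library 2 and at 1.09 to 3.17 in the other libraries. The part of melanocytes in the level of Kit was not tested.

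Kitl, the ligand of Kit, was at 8.42, 13.3 and 19.2 CPM in the controls, 29.9, 19.6 and 21.2 at day 7 and 24.2, 27.6 and 24.1 at day 14. Every irradiated library was above every control. Kitl rose at day 7 by 0.79 (SE 0.245, adjusted p = 0.0282) and differed by 0.89 at day 14 (SE 0.245, adjusted p = 0.0742). The day 7 call was lost without control library 1, control library 2, day 7 library 1 or day 7 library 3, with values from 0.53 to 1.10 with a library left out, and after the length and GC correction (0.45, adjusted p = 0.112). Of 20 genes of Kit signalling and related receptors, 5 rose and 1 fell at day 7, with a median of 0.18. That is 30% called, beside 30.6% of all tested genes. The transcription factor Etv1 (0.81, adjusted p = 0.000681), the exchange factor Sos1 (0.72, 0.00265) and the receptors Fgfr2 (0.70, 0.00568) and Fgfr1 (0.36, 0.0129) rose with Kitl, and the adaptor Grb2 (-0.32, 0.0151), looked up after the count was known, fell. The higher count was 3 without control library 2, and the lower call was lost without day 7 library 2. Fgfr1 lost its call without control library 2. At day 14 edgeR called none of the 20, with 6 at an unadjusted p under 0.05. DESeq2 called 3, beside 6.79% of all genes, and limma-voom 4, beside 10.9%.

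The fitted changes of the sodium channel subunits differed in sign at day 7, and in the main fit that of Scnn1a alone was called. Scnn1a, the alpha subunit (ENSMUSG00000030340, chr6:125320659-125344943, plus strand), was at 59.9, 67.2 and 66.4 CPM in the controls, 78.6, 103.8 and 72.1 at day 7 and 60.4, 61.4 and 67.4 at day 14. All day 7 libraries lay above all others, library 2 by the most, and day 14 lay among the controls. Scnn1a rose at day 7 by 0.40 (SE 0.119, adjusted p = 0.0167), was lower at day 14 than at day 7 by -0.43 (SE 0.119, adjusted p = 0.0367) and differed by -0.03 between day 14 and control (SE 0.119, 95% interval -0.28 to 0.22, adjusted p = 0.905). The day 7 call was lost without control library 1 (0.34, adjusted p = 0.0683) or day 7 library 2 (0.23, 0.166). The call of day 14 against day 7 was lost without day 7 library 1 (-0.48, adjusted p = 0.0574), day 7 library 2 (-0.26, 0.249), day 14 library 1 (-0.40, 0.139), day 14 library 2 (-0.42, 0.099) or day 14 library 3 (-0.48, 0.0617).

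Scnn1b, the beta subunit (ENSMUSG00000030873, chr7:121865038-121918514, plus strand), had 17.6, 16.9 and 19.97 CPM in the controls, 13.3, 17.2 and 11.02 at day 7 and 13.0, 9.35 and 16.7 at day 14. One day 7 library lay within the controls, and all day 14 libraries lay below them, library 3 only just. The difference was -0.40 at day 7 (SE 0.195, adjusted p = 0.134) and -0.48 at day 14 (SE 0.196, adjusted p = 0.166). Without day 14 library 2 the day 14 value was -0.31. Scnn1g, the gamma subunit, was lower in level, at 4.09, 6.81 and 6.96 CPM in the controls and 2.72, 4.72 and 4.14 at day 7, a difference of -0.62 that was not called (adjusted p = 0.0874).

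Per kilobase of exon, the ratio of Scnn1a to Scnn1b was 2.17, 2.53 and 2.12 in the controls, 3.78, 3.85 and 4.17 at day 7 and 2.96, 4.19 and 2.57 at day 14. Every irradiated library was above every control, and the day 7 libraries lay close together. The ratio was 1.74-fold higher at day 7 than in controls and 1.4-fold higher at day 14, each with a two-sided exact permutation p of 0.1, the smallest that 3 libraries against 3 allow. Day 14 and day 7 differed 0.807-fold (exact permutation p = 0.4). The ratio does not depend on how libraries are scaled, and its log2 difference at day 7 from the fitted changes ran from 0.64 to 0.87 over 19 alternative settings. The ratio of Scnn1a to Scnn1g was 6.91 to 10.6 in controls, 12.6 to 21.0 at day 7 and 10.6 to 10.9 at day 14.

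**Figure D2:**
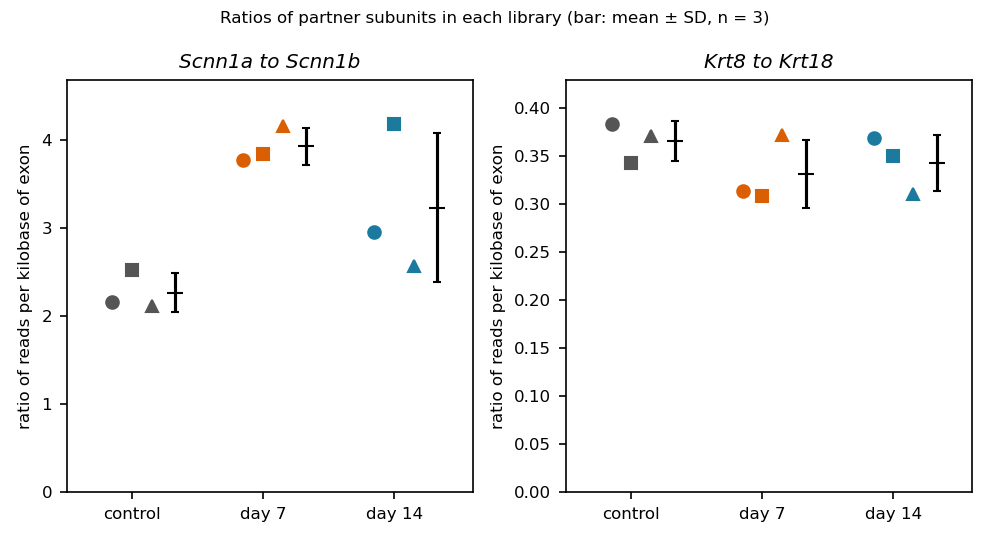
Ratio of partner subunits per kilobase of exon in each library (linear axes from 0), with the library's number in its group as the symbol and the mean ± SD of 3 libraries as the bar. The Scnn1a to Scnn1b ratio is 2.27 ± 0.224 in controls and 3.93 ± 0.207 at day 7, whereas the Krt8 to Krt18 ratios of the groups overlap.

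Other genes of sodium absorption moved in both directions at day 7. Of 18 tested, 5 rose and 4 fell (50%, beside 30.6% of all tested genes), with a median of 0.08. Because this list and those that follow were chosen with earlier results of these data known, such a share describes the list only. Usp2, a deubiquitinase that acts on the channel, rose most, from 15.1, 15.1 and 22.3 CPM in the controls to 60.7, 58.9 and 40.2 at day 7 (1.60, SE 0.235, adjusted p = 0.000549), and stood at 25.01, 18.2 and 14.0 at day 14. Nedd4, of the ubiquitin ligases that remove the channel from the surface (0.75, adjusted p = 8.59e-05), the mineralocorticoid receptor Nr3c2 (0.57, 0.0109) and the sodium pump subunit Atp1b1 (0.51, 0.00232) also rose. The related ligase Nedd4l was not called, at 16.6, 19.3 and 18.9 CPM in the controls and 19.2, 21.1 and 19.4 at day 7. The pump regulator Fxyd3 (-0.44, adjusted p = 0.00216) and the channel-cleaving protease Furin (-0.36, 0.00526) fell. The remaining calls, looked up after the counts were known, were the kinase Stk39 (0.34) as higher and the protease St14 (-0.27) and the pump subunit Fxyd2 (-0.76) as lower. With a library left out, Stk39 was called in 7 of 9 fits (lost without control library 1 or 2), and St14 in 5 (lost without control library 1, control library 2, day 7 library 1 or day 7 library 3). Fxyd2 was called in 5 (lost without control library 1, control library 3, day 7 library 1 or day 7 library 3), and Nr3c2 in 8 (lost without day 7 library 1). The lower count was 2 without day 7 library 1 or day 7 library 3. At day 14 edgeR called none of the 18, with 3 at an unadjusted p under 0.05. DESeq2 called 2, beside 6.79% of all genes, and limma-voom 3, beside 10.9%.

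Cftr, the apical chloride and bicarbonate channel (ENSMUSG00000041301, chr6:18170687-18322768, plus strand), had 8.11, 11.9 and 10.0 CPM in the controls, 7.28, 9.06 and 6.45 at day 7 and 8.24, 5.21 and 8.83 at day 14. The groups overlapped at both times, with control library 1 among the irradiated values. The difference was -0.40 at day 7 (SE 0.221, adjusted p = 0.183) and -0.43 at day 14 (SE 0.221, adjusted p = 0.269). Without day 14 library 2 the day 14 value was -0.25.

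Slc4a4, the sodium bicarbonate cotransporter NBCe1 (ENSMUSG00000060961, chr5:88886818-89239653, plus strand), was at 8.78, 10.7 and 9.05 CPM in the controls, 15.4, 11.8 and 11.5 at day 7 and 9.58, 16.3 and 9.70 at day 14. The day 7 libraries lay above the controls, and at day 14 library 2 alone did so. The difference was 0.44 at day 7 (SE 0.205, adjusted p = 0.114) and 0.32 at day 14 (SE 0.205, adjusted p = 0.384). Without day 14 library 2 the day 14 difference was -0.0039.

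Of 19 tested genes of chloride and bicarbonate transport, 31.6% were called at day 7, beside 30.6% of all tested genes. The median was 0.21, and all 6 called genes rose. Clcn3, a chloride/proton exchanger of vesicles (0.82, adjusted p = 0.000512), Slc4a7, a sodium bicarbonate cotransporter (0.60, 0.00327), Car12, a carbonic anhydrase of the cell surface (0.52, 0.00033), and Ahcyl1, a regulator of Slc4a4 and Cftr (0.33, 0.008), were among them, and the other two, looked up after the count was known, were the channel Clcn2 (0.59) and the membrane linker Ezr (0.31). With a library left out, Ahcyl1 was called in 8 of 9 fits (lost without day 7 library 2) and Clcn2 in 7 (lost without control library 2 or day 7 library 2). Ezr was called in 2 of 9, those without control library 3 and without day 14 library 3. The higher count was 3 without day 7 library 2, and 1 gene was lower without control library 3 or day 7 library 3. Car12 was abundant, at 321, 268 and 274 CPM in the controls, 418, 400 and 420 at day 7 and 298, 296 and 316 at day 14. Clcn3 was the 1 gene of the list called at day 14 (0.59, adjusted p = 0.0407). That call held in 8 of 19 alternatives and in 2 of 9 with a library left out, those without control library 3 and without day 7 library 1, and the value was 0.29 (adjusted p = 0.104) after the length and GC correction.

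Genes of epithelial junctions moved in both directions. Of 20 tested, 8 rose and 4 fell at day 7 (60%, beside 30.6% of all tested genes), with a median of 0.16. The tight junction proteins Tjp3 (-1.33, adjusted p = 8.52e-07) and Cldn7 (-0.80, 2.06e-05) fell, whereas the scaffold Tjp1 (0.74, 0.000178) and the desmosome protein Dsp (0.70, 0.000458) rose. Tjp3 went from 81.0, 65.7 and 66.6 CPM in the controls to 25.3, 29.2 and 30.4 at day 7 and 54.5, 50.3 and 60.5 at day 14. The higher count was 4 without control library 1, control library 2, day 7 library 1 or day 7 library 2. At day 14 edgeR called none of the 20 against control, with 5 at an unadjusted p under 0.05. DESeq2 and limma-voom called 3 each, beside 6.79% and 10.9% of all genes.

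Of 19 tested transcription factors and segment genes of ducts, 4 rose and 6 fell at day 7, with a median of -0.06. That is 52.6% called, beside 30.6% of all tested genes. The splicing factor Esrp1 (0.53, adjusted p = 0.000589) and the epithelial transcription factor Grhl2 (0.52, 0.00129) rose. The glutathione transferase Gstt1 (-0.98, 0.00021) and the secreted inhibitor Wfdc2 (-0.70, 0.000396) fell. The higher count was 2 when control library 1 or day 7 library 3 was left out. The lower count was 3 without day 7 library 1. At day 14, 2 of the 19 were called, both lower: Wfdc2 (-0.71, adjusted p = 0.0155) and, named after its values were seen, the kallikrein Klk1 (-0.98, 0.035). After the length and GC correction neither was called, at -0.44 for Wfdc2 (adjusted p = 0.0586) and -0.79 for Klk1 (0.195). Wfdc2 also lost its call without control library 2 or day 14 library 2. Klk1 held its call in 3 of 9 fits with a library left out, those without control library 1, control library 3 and day 14 library 3.

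Gene length moved with the change at day 7, and the 10 members differ widely in length. Across the 15348 tested genes, which are not independent replicates, Spearman's rho of the day 7 change with exonic length was 0.42. The members that fell are short, Krt18 with 1437 bases of exon and Krt8 with 1958, and Egf with 11275 and Kit with 8911, which rose, are long. Scnn1a has 4132 bases. Among the other members Krt19 has 1855, Scnn1b 2633, Krt7 7049, Cftr 7765 and Slc4a4 10815.

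**Figure D3:**
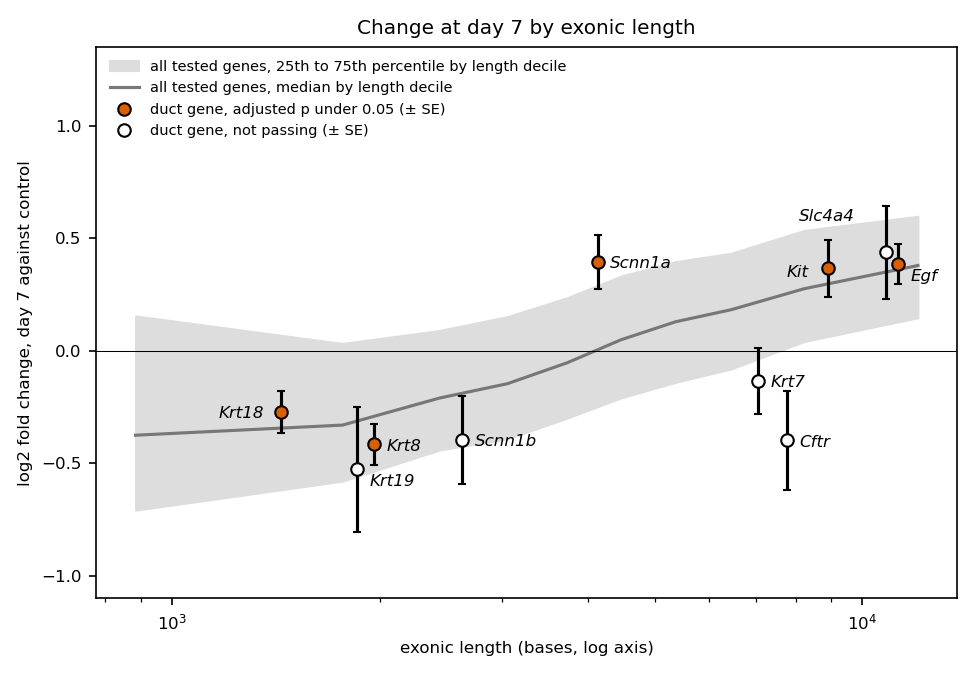
Log2 fold change at day 7 against control by exonic length (log axis), with the median and the 25th to 75th percentile of all tested genes by length decile as line and band, and the duct genes as points with SE. Krt8, Krt18, Krt19, Scnn1b, Egf, Kit and Slc4a4 lie inside the band at their length, whereas Scnn1a lies above it and Krt7 and Cftr lie below it.

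When each library was corrected for the trend of its counts with gene length and GC content, 4 of the 5 day 7 calls among the members were lost. Krt8 was then at -0.07 (SE 0.0802, adjusted p = 0.604), Egf at 0.13 (SE 0.0832, adjusted p = 0.294) and Kit at 0.09 (SE 0.116, adjusted p = 0.632). Krt18 changed sign, to 0.12 (SE 0.0828, adjusted p = 0.342). The change of Scnn1a was 0.52 (SE 0.116, adjusted p = 0.00351), and its difference between day 14 and day 7 was -0.43 (SE 0.115, adjusted p = 0.0318). Cftr, which is long and has a GC content of 41.2%, was called lower at day 7 after the correction (-0.85, SE 0.222, adjusted p = 0.0093), and stood at -0.75 at day 14 (adjusted p = 0.104). Krt7 was at -0.39 at day 14 (adjusted p = 0.173), close to its uncorrected value, and Slc4a4 at 0.14 at day 7 (adjusted p = 0.659). Krt19 and Scnn1b had smaller differences than before the correction. Krt19 was at -0.18 at day 7 (adjusted p = 0.686) and -0.43 at day 14 (0.462). Scnn1b was at -0.14 at day 7 (adjusted p = 0.66) and -0.32 at day 14 (0.463).

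The correction changed the lists unequally. Over all genes 3076 were called in place of 4692, 50.2% of the original calls were kept, and rho with length became 0.04. At day 7 the count of genes of chloride and bicarbonate transport was again 6 higher and 0 lower, and that of sodium absorption 4 higher and 4 lower. Kit signalling went from 5 higher to 2, junctions from 8 higher to 4 with 4 lower in both, EGF receptors and ligands from 5 higher to 4, and duct transcription factors and segment genes from 4 higher and 6 lower to 3 and 3. The other keratins had 2 higher, Krt14 among them, and 2 lower. The granular duct list went from 3 lower to 0, the acinar list from 3 higher and 9 lower to 1 and 6, and the basal and myoepithelial list from 3 higher and 1 lower to 5 and 0.

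Among the single genes named, the correction ended the day 7 calls of Slc4a7 (0.16, adjusted p = 0.4), Ahcyl1 (0.08, 0.574), Sos1 (0.28, 0.138), Fgfr1 (0.24, 0.085) and Grb2 (-0.17, 0.189). Those of Nr3c2 (0.40, adjusted p = 0.0645), Stk39 (0.20, 0.0847), Fxyd2 (-0.62, 0.072), Lrig3 (0.29, 0.226) and Wfdc2 (-0.27, 0.0898) also ended. Clcn3 (0.35), Etv1 (0.39), Nedd4 (0.37), Car12 (0.34), Grhl2 (0.31), Cldn7 (-0.45), Gstt1 (-0.62) and Krt23 (-0.31) were still called, at smaller values. Tjp3 was at -1.13, Usp2 at 1.64 and Lrig1 at 0.61, close to the uncorrected values.

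**Figure D4:**
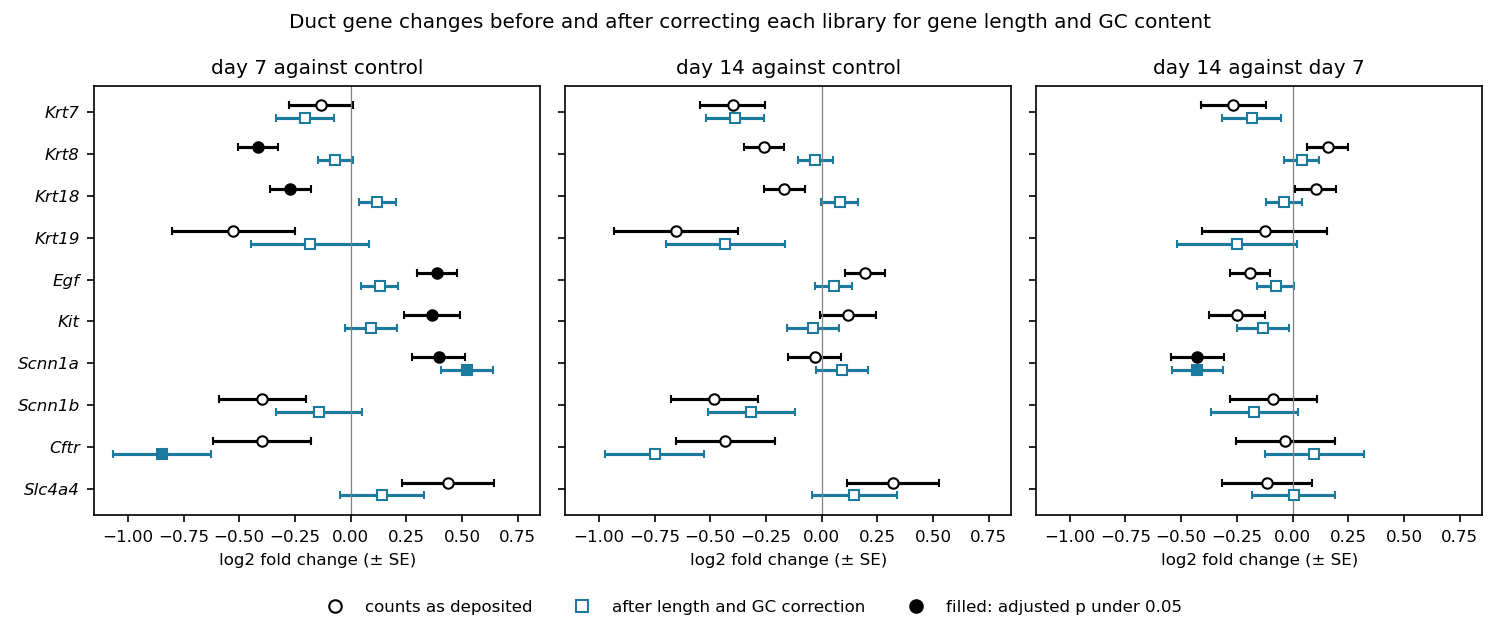
Log2 fold changes (± SE) of the duct genes in the 3 comparisons, from the counts as deposited (black circles) and after correction of each library for gene length and GC content (blue squares), filled where the adjusted p was under 0.05. At day 7 Scnn1a is filled in both, Krt8, Krt18, Egf and Kit in the uncorrected counts, and Cftr in the corrected counts.

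At day 14 no member passed edgeR's test against control. At an unadjusted p under 0.05 there were 5 (Krt7, Krt8, Krt19 and Scnn1b lower, Egf higher), and the share of all genes at that level was not counted. DESeq2 called 2 (Krt7 and Krt8, both lower) and limma-voom 1 (Krt8), beside 6.79% and 10.9% of all genes. The libraries did not overlap for 5 of the 10, against 23.1% of all genes, and the median change was -0.21, beside 0.01 over all genes. At day 14 against day 7 the libraries of Egf and Scnn1a did not overlap, which is 2 of 10 against 29.4% of all genes, and the members' median was -0.12 beside 0.00135. The call rate at day 14 rests on single libraries: 270 genes were called in all, 13 without control library 1, 15 without control library 2, 1937 without control library 3, 148 without day 7 library 2, and 71, 36 and 31 without day 14 library 1, 2 and 3. For day 14 against day 7, 1011 genes were called, and 403, 330 and 636 without day 7 library 1, 2 and 3, and 410, 436 and 564 without day 14 library 1, 2 and 3.

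Krt7, Krt19, Scnn1b and Cftr varied together across the libraries, a pattern looked for after their values were seen. Kit shared it on deviations from the group means, with r of 0.664, 0.801, 0.885 and 0.723 with these genes in the same order, and not over all libraries (0.285, 0.116, 0.156 and 0.0906). Kit too was lowest in day 14 library 2. Scnn1a shared the pattern in part on deviations from the group means, with r of 0.318, 0.722, 0.704 and 0.645 in the same order. Over all libraries its r was 0.287, 0.195, 0.183 and 0.149. Each of the 4 was lowest of the 9 in day 14 library 2 and next lowest in day 7 library 3. In day 14 library 2 they were at 56.2%, 38.6%, 51.4% and 51.9% of the control mean, in that order. Slc4a4 was at 171% in the same library, its highest. Fxyd2, the pump subunit named above, chosen after its values were seen, was at 37.9% there and fell at day 7 (-0.76, SE 0.199, adjusted p = 0.0186).

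Among the 45 pairs of members, log2 CPM of Krt19 and Scnn1b had a Pearson r of 0.963 over the 9 libraries (exact permutation p = 0.000234, 0.00527 adjusted over the pairs) and a Spearman rho of 0.867 (exact p = 0.00451, adjusted 0.0676). Without the 2 libraries farthest from the median r was 0.867, and on deviations from the group means it was 0.935 (exact permutation p = 0.037, adjusted 0.268). Krt19 and Cftr had r = 0.944 (exact permutation p = 8.27e-05, adjusted 0.00372), rho = 0.950 (exact p = 0.000353, adjusted 0.0159), 0.823 without the 2 farthest libraries and 0.913 within groups (p = 0.00463, the smallest that these permutations can give, adjusted 0.208). With this smallest p, no single pair could pass within groups after adjustment over the 45. Scnn1b and Cftr had r = 0.869 (exact permutation p = 0.00184, adjusted 0.0276) and 0.585 without the 2 farthest libraries, and Krt7 and Krt19 had r = 0.848 (exact permutation p = 0.00385, adjusted 0.0346) and 0.680. Their rho was 0.733 in both (exact p = 0.0311, adjusted 0.1). Within groups r was 0.786 for Scnn1b and Cftr (exact permutation p = 0.0509, adjusted 0.271). For Krt7 and Krt19 it was 0.837 (exact permutation p = 0.0417, adjusted 0.268). Permutations over all 9 libraries ignore the groups, so shifts shared by a group enter their p-values. Krt7 with Scnn1b and with Cftr reached r = 0.773 and 0.764 (exact permutation p = 0.0113 and 0.0193, adjusted 0.0651 and 0.0868), and 0.521 and 0.469 without day 14 library 2.

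The opposite relation was seen for Krt8 and Kit, with r = -0.869 (exact permutation p = 0.00329, adjusted 0.0346), rho = -0.900 (exact p = 0.00203, adjusted 0.0456), -0.782 without the 2 farthest libraries and -0.843 within groups (exact permutation p = 0.0231, adjusted 0.268). Krt8 and Krt18 had r = 0.791 over all libraries (exact permutation p = 0.0116, adjusted 0.0651) and 0.288 within groups (exact permutation p = 0.519).

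**Figure D5:**
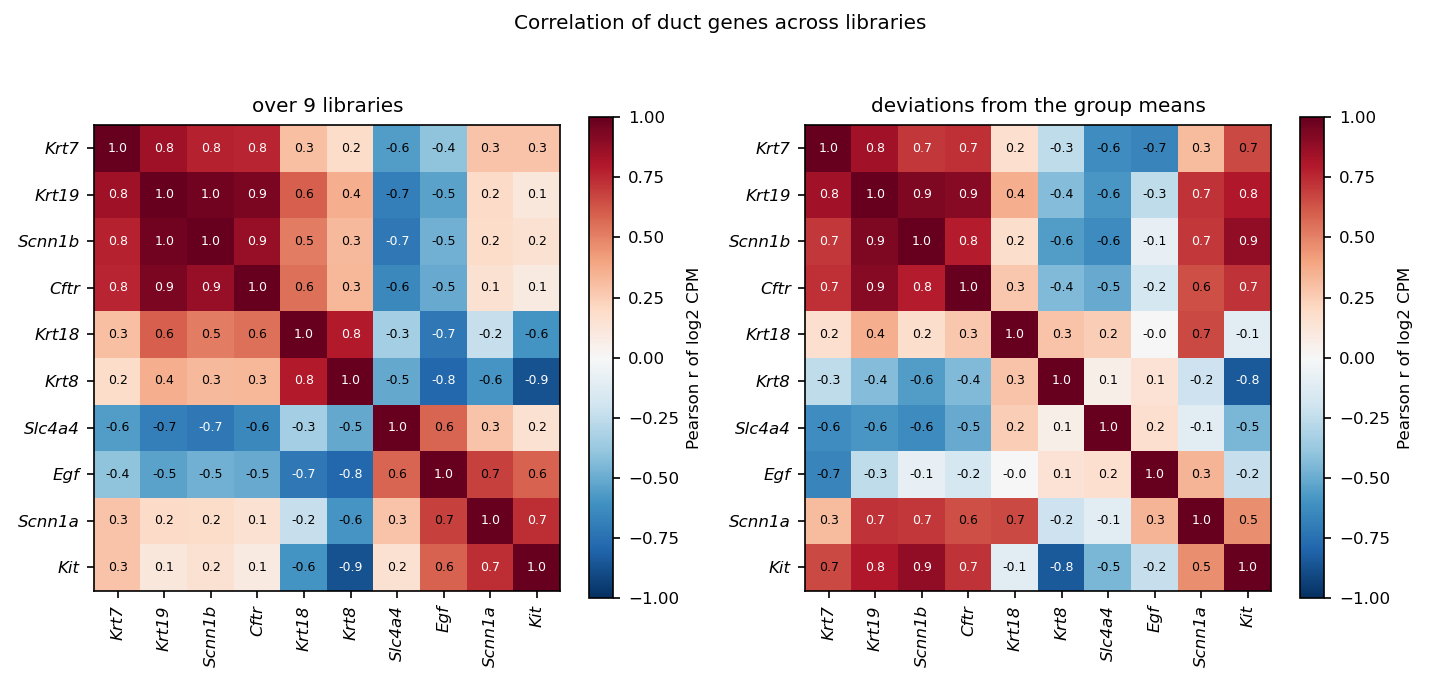
Pearson r between the log2 CPM of the duct genes over the 9 libraries (left) and between their deviations from the group means (right), on a colour scale from -1 to 1. Krt7, Krt19, Scnn1b and Cftr form a block of positive values in both panels, joined by Kit in the right one. Scnn1a is there positive with these genes too, least with Krt7 (0.318). Krt8 and Kit are negative in both panels (-0.869 and -0.843).

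The genes whose log2 CPM was most like each member over the 9 libraries are given as a description. Krt7 was most like Fbxo44 (r = 0.970) and Lynx1 (0.950), Krt8 most like Imp3 (0.992) and Fkbp11 (0.991), and Krt18 most like Mpc2 (0.994) and Acbd6 (0.985). Krt19 was most like Tmem191c (0.970) and Scnn1b (0.963), Scnn1b most like Krt19 (0.963) and Smim5 (0.948), and Cftr most like Tmem191c (0.978) and Krt19 (0.944). For Egf the nearest genes were Ate1 (0.982) and Ncapd3 (0.982), for Kit Srrm2 (0.963) and Ice2 (0.955), for Scnn1a Ift172 (0.945) and Odf2 (0.939), and for Slc4a4 Crybg3 (0.915) and Dbt (0.907).

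Other cell types of the gland shifted with the groups, and in bulk tissue fewer cells of a type and less RNA per cell cannot be told apart. Of 14 tested acinar genes, 85.7% were called at day 7, beside 30.6% of all tested genes. There were 9 lower and 3 higher, with a median of -0.42, and Krt8 and Krt18, which acini also make, were lower. After the length and GC correction the acinar median was -0.25, with 6 lower and 1 higher, while Krt8 was at -0.07 and Krt18 at 0.12. Their summed level was 253057 to 350842 CPM in controls, 235298 to 251852 at day 7 and 257621 to 282755 at day 14. The basal and myoepithelial list had 3 higher (Itgb4, Myh11 and Col17a1) and 1 lower (Myl9) of 10 at day 7, or 40% called. The lower call was lost without control library 1, control library 2, day 7 library 2 or day 7 library 3. The correction turned Myl9 to 0.09. The sum of the list was 1015 to 1152 CPM in controls and 1113 to 1289 at day 7. The leukocyte sum was 97.9 to 108 CPM in controls, 50.4 to 86.7 at day 7 and 138 to 171 at day 14. Squamous epithelium genes summed to 6.69 to 13.6 CPM over the libraries, with Sprr3 and Dsg1a at 0, and mesothelium genes to 1.76 to 6.43 CPM, with Upk3b and Lrrn4 at 0. Skeletal muscle genes summed to 4.89 to 8.77 CPM. Fibroblast and endothelium genes summed to 538 to 578 CPM in controls, 646 to 753 at day 7 and 619 to 730 at day 14. Of these 8 genes, 2 were called higher and 0 lower at day 7 (25%, beside 30.6% of all tested genes), and 2 higher and 1 lower after the correction. The part of these shifts in the changes of the duct genes was not tested.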

How the data were processed

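RNA-seq was done on 9 sublingual gland libraries, 3 in each group. The authors deposited whole-number counts per gene for each library, without normalisation, and the submitters' processing notes name mm10, STAR, featureCounts and DESeq2. For these tools the sources used here do not give a version or setting, the gene annotation or the use of strand. Of 54532 identifiers, 54495 were matched to a symbol in GENCODE M21, whose GRCm38 coordinates, exonic lengths and GC contents are used. Counts were filtered with filterByExpr (15348 genes tested, 39184 not), scaled by TMM and tested with edgeR 4.0.16 in R 4.3.3 (quasi-likelihood F test, robust, two-sided, 1 fit of all 9 libraries by group). Adjusted p-values are Benjamini-Hochberg over the tested genes within a comparison, with a threshold of 0.05. The pipeline was tested on simulated data.

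The length and GC correction fitted each library's log2 counts, centred per gene, by natural splines with 5 degrees of freedom on log2 exonic length and on GC content, and used the fit as an offset. Other alternatives changed the scaling (size factors of DESeq2, or TMM leaving out the 20 most abundant genes), the filter (none, or at least 1 CPM in 3 libraries), the tool (DESeq2 1.42.0, or limma-voom from limma 3.58.1 with sample weights) or the libraries and design: the replicate number as a block with and without the correction, the 6 libraries compared alone, and each library left out in turn.

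The members and gene lists were chosen with earlier results of these data known. Named genes were the 10 members, up to 4 genes of each duct list with the smallest p among those called at day 7, and up to 2 more from day 14 against day 7. For each member the 2 genes most alike it, of at least 5 CPM on average, were taken. Genes named outside this rule with an adjusted p or a level (such as Scnn1g, Egfr, Kitl, Krt5, Krt14, Klk1, Fxyd2 and Itgb4) were chosen for their role or after their values were seen. No library repeats another: within a group, pairs had a chi-square of 9.927 to 137.6 for each degree of freedom, where sampling noise alone gives about 1. Depth was 15962399 to 19441239 counts, and limits from counts cover counting error only. A few list genes enter the counts and sums but are not reported here.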

Additional observations from a re-analysis of the deposited data

Results flagged for a closer look

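For the genes named here the change from control differed between the 2 times, tested directly as day 14 against day 7 with edgeR's quasi-likelihood test. Calls held to different degrees over the 19 alternatives. Among the members this holds for Scnn1a (-0.428, adjusted p = 0.0367), higher than control at day 7 and near it at day 14, called in 13 of the 19. Genes of sodium absorption were Usp2 (-1.48), Nr3c2 (-0.553) and Furin (0.433). In chloride and bicarbonate transport the carbonic anhydrase Car12 (-0.445) and the membrane linker Ezr (-0.418) were lower at day 14 than at day 7. The tight junction genes Tjp3 (0.962, adjusted p = 9.03e-05) and Cldn7 (0.440) were higher at day 14 than at day 7, and both had been lower than control at day 7. Tjp1 (-0.394) and the desmosome and cornified-envelope genes Dsp (-0.438), Ppl (-0.664) and Evpl (-0.638) were lower at day 14. In growth factor signalling Lrig1 (-0.339) was lower and the phosphatase Dusp6 (0.444) higher. Of the duct segment genes Gstt1 (0.674) was higher and the transcription factor Klf5 (-0.485) lower. The basal integrin Itgb4 (-0.761, adjusted p = 0.000135), named after its values were seen, was lower. Tjp3, Cldn7, Car12 and Itgb4 were called in all 19 alternatives, and Usp2 and Furin in 18. Klf5 was called in 16, Ppl, Evpl, Dusp6 and Gstt1 in 15 and Ezr in 14. Dsp and Lrig1 were called in 11 and Nr3c2 and Tjp1 in 10, and these lost the call after the length and GC correction, with adjusted p of 0.0744, 0.0669, 0.0594 and 0.0709. With 3 libraries a group, the rule for single libraries that stand apart could not be applied.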

How the results depend on the processing

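For 64 named genes, 3648 log2 fold changes were recomputed under 19 alternatives. Of these, 3301 kept their side of the threshold, 240 lost their call, 103 gained one and 4 reversed. Reversal was counted only for genes called in the main fit. Uncalled genes that changed sign, such as Krt5 at day 7 (-0.17, and 0.16 after the correction), are among the 3301 or the 103. The reversals are at day 7: Krt18 at 0.119 and Myl9 at 0.0945 with the length and GC correction, and 0.120 and 0.0869 with that correction and the replicate block. The duct genes called higher at day 7 (3) became 1 with the correction and 1 with correction and replicate block, and 1 to 3 with a library left out. Those called lower (2) became 1 with the correction, with correction and block, without a filter and with the 6 libraries alone, and 1 to 2 with a library left out. With the correction, with or without the block, that 1 gene was Cftr, and neither Krt8 nor Krt18 was called. Without a filter and with the 6 libraries alone it was Krt8. All genes called at day 7 (4692) became 3076 with the correction, 2936 with correction and replicate block, 4319 with the block alone, and 3106 to 5314 with a library left out. Duct genes lower at day 14 (0) became 1 without a filter, 2 in DESeq2, 1 in limma-voom and 0 to 1 with a library left out. All genes called at day 14 (270) became 1300 without a filter, 1042 in DESeq2, 1678 in limma-voom, 113 with the replicate block, 122 with the correction, 75 with both, 157 with 6 libraries and 13 to 1937 with a library left out. For day 14 against day 7 all calls (1011) became 1874 in limma-voom and 330 to 1415 with a library left out, and Scnn1a, the 1 duct gene, lost its call with the replicate block (-0.416, adjusted p = 0.0509), leaving 0, and 0 to 1 with a library left out. The cause of these shifts was not tested. Libraries of the same number correlated at -0.109 to 0.0348 and 0 of 9 were most like their own number in both other groups, so the numbers were not taken as pairs. Counts of 54 to 177 for Krt19 and Cftr limit their precision.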
